A study of Mus musculus with 6 samples.

Results

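Sites of open chromatin that were called in both genotypes but stood far lower in the knockout peak list were examined in regulatory T cells (Treg cells) with and without Bcl11b. The KO mice were Bcl11b f/f Foxp3-IRES-YFP-Cre and the WT mice Bcl11b w/w Foxp3-IRES-YFP-Cre, all on the C57BL/6 background. Both genotypes therefore carried Cre recombinase and YFP from the Foxp3 locus, and the deletion was directed to cells that express Foxp3. CD4+YFP+ cells were sorted from spleen and draining lymph nodes, with 3 samples per genotype and 100000 cells lysed per sample. The labels used here give neither the age of the mice nor the deleted part of Bcl11b. Accessibility was measured by ATAC-seq, and the data are 1 peak list per genotype on mouse build mm10, with 36182 peaks for KO and 38258 for WT.

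A peak's position is its row number as a percentage of the rows of its list, so that 0 is the top and 100 the bottom. Of 26367 overlapping KO and WT peak pairs on chromosomes 1 to 19, 1723 stood at least 25 points further down the KO list. These, selected on the KO minus WT position itself, are called down-ranked pairs. They made up 6.53% of the shared pairs, a share that the selection itself sets. A further 990 pairs (3.75%) stood at least 25 points further up the KO list and are called up-ranked pairs. The lists hold no read counts, every peak has the same score, and the labels do not say that row order follows peak strength, so a position is an order in a list and not a level. Because each genotype has 1 list, depth per sample is unknown, the spread between mice could not be measured and no test was possible. Intervals are exact Clopper-Pearson 95% intervals and cover counting error only.

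ATAC-seq uses a transposase that inserts adapters into DNA not covered by nucleosomes, and its peaks mark promoters, enhancers and other regulatory sites. Promoters of widely expressed genes tend to be open in many cell types, whereas enhancers, often inside introns or far from genes, tend to be particular to a cell type or state. Bcl11b encodes a zinc-finger transcription factor that T cells need for their development and identity, and Foxp3 encodes the factor that defines Treg cells.

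The surplus of down-ranked over up-ranked pairs depended on how positions were taken. When each peak was ranked among the shared peaks alone, 942 pairs moved down and 1319 moved up, so that the surplus lay on the other side. Of these 942 pairs, 913 were among the 1723, which is 96.9% of the first set and 53.0% of the second. Over all shared pairs the median KO minus WT position was 2.52 points. Rows in each list also run in blocks sorted by chromosome and start, with a median of 539.5 rows or 1.49 points per block near the 90% mark of the KO list and 510 rows or 1.33 points near that of the WT list. Positions low in a list are therefore resolved to no better than a block.

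The sorted identity was checked against marker genes. All 6 Treg markers (Foxp3, Il2ra, Ctla4, Ikzf2, Tnfrsf18 and Nrp1) and all 4 T cell markers had a shared peak. A shared peak was assigned to 1 of 4 B cell markers, 1 of 4 myeloid markers, 2 of 3 NK or innate lymphoid markers and 1 of 2 CD8 markers, and none to Cd79a, Ms4a1, Lyz2, Csf1r, Itgam, Ncr1 or Cd8a. In bulk cells of this kind, fewer cells with an open site and less opening per cell cannot be told apart.

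Promoter sequence was compared first, because it is what the sequence table used here holds. Down-ranked WT peaks overlapped 124 windows of 300 bases around RefSeq gene starts (GRCm38.p6, 250 bases before the start and 50 after it), and 71 of these windows held the midpoint of the WT peak. The 3 windows printed first have the largest position difference among those 71. Hopx and Pdcd1 are shown because their down-ranked peaks touch the promoter of a gene known from T cells, and they were chosen after their values were seen. All 5 are written 5′ to 3′ on the strand of the gene, and capitals mark matches to the letters searched on both strands.
Palld: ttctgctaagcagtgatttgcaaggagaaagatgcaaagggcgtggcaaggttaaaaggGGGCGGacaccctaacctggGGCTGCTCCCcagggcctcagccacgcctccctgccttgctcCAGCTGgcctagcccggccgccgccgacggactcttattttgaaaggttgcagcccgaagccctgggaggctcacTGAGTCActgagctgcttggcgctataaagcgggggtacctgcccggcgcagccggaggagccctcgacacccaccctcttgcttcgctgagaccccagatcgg
Slamf7: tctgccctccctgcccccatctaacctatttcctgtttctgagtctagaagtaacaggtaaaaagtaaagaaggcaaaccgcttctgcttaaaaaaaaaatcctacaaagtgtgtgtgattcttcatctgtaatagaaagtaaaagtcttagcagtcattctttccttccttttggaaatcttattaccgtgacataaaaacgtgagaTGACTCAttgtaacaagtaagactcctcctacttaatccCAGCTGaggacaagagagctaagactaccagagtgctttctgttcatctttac
Susd4: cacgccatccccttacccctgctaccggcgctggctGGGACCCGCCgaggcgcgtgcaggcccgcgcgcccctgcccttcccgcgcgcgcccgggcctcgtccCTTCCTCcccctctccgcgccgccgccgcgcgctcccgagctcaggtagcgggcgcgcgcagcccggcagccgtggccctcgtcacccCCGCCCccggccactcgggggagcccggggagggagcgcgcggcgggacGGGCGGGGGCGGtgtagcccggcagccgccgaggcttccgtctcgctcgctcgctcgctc
Hopx: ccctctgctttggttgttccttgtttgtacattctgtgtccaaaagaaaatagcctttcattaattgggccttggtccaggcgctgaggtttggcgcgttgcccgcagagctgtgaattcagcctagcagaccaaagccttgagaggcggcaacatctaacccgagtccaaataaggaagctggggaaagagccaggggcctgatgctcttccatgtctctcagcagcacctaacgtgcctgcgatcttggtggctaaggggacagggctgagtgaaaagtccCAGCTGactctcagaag
Pdcd1: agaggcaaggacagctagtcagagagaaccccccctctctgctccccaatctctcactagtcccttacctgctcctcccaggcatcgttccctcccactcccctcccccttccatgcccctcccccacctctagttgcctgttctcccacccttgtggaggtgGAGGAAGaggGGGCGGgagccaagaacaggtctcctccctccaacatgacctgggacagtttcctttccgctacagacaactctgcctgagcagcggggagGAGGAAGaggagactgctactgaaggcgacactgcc

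These windows differ in base composition. The Palld window, at chr8:61591090-61591389 on the minus strand, has 63.0% G and C and 17 CpG, and it holds TGAGTCA, the letters of an AP-1 site, with 1 KLF/SP, 1 NF-kB and 1 E-box match. The WT peak overlapped 143 of its 300 bases, and of these matches only the AP-1 letters lay in the overlap. Palld encodes the actin-associated protein palladin, and the window surrounds a start inside the annotated gene. The Slamf7 window, at chr1:171648950-171649249 on the minus strand, has 39.0% G and C, 3 CpG, an AP-1 match written TGACTCA and an E-box match CAGCTG. Slamf7 encodes a receptor of the SLAM family on lymphocytes. In contrast, the Susd4 window at chr1:182763966-182764265 on the plus strand has 81.3% G and C, 50 CpG and 3 KLF/SP matches, the last 2 of which abut in its run GGGCGGGGGCGG. This window also holds an NF-kB match and a GAGGAAG match. Susd4 encodes a membrane protein that inhibits complement. The Hopx window, at chr5:77115074-77115373 on the minus strand, has 53.0% G and C and a single match, CAGCTG. The Pdcd1 window, at chr1:94052504-94052803 on the minus strand, has 60.7% G and C, 2 matches to GAGGAAG and a KLF/SP match. The WT peak overlapped 78 bases of the Pdcd1 window, and of these matches only the second GAGGAAG lay in the overlap.

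Across these windows, the ETS letters CCGGAAG were in 5 of 124 down-ranked ones (4.03%, interval 1.32 to 9.16%). They were in 1509 of 6899 windows overlapped by other shared WT peaks (21.9%), also counted at 1 per pair. For all promoters, 1 window per gene was taken, the one with the lowest coordinate, and 9.26% of these 25748 windows held the letters. ETS factors are a large family that binds many promoters of widely expressed genes. The up-ranked windows also had a low share, 3 of 64 (4.69%), so the difference from other shared peaks was not particular to the down-ranked ones. KLF/SP letters GGGCGG were in 55.6% of down-ranked windows, 59.4% of up-ranked windows, 69.4% of the other shared windows and 36.0% of all promoters. Median CpG number was 14 in down-ranked and 14 in up-ranked windows, 23 in windows of other shared pairs and 7 over all promoters. The median share of G and C was 58.0% in down-ranked windows, 58.7% in up-ranked windows, 62.0% in windows of other shared pairs and 52.7% over all promoters. The windows were not matched for list position. From 0 to 10 in the WT list, 74.5% of shared pairs were at gene ends and only 4 pairs were down-ranked. The contrasts with other shared windows may therefore reflect list position.

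For AP-1, RUNX and TGACCA letters, down-ranked windows differed less from other shared windows than for CCGGAAG. AP-1 letters TGANTCA, bound by Fos and Jun dimers, were in 11 of 124 down-ranked windows (8.87%, 4.51 to 15.3%), 14.1% of up-ranked windows, 4.30% of other shared windows and 7.97% of all promoters. RUNX letters TGTGGT were in 16.1% of down-ranked windows, 25% of up-ranked windows, 12.5% of other shared windows and 16.9% of all promoters. The letters TGACCA, described for the related factor BCL11A, were in 11 of 124 down-ranked windows (8.87%, 4.51 to 15.3%) and in 16 of 64 up-ranked windows (25%, 15.02 to 37.4%). They were in 10.2% of other shared windows and 13.8% of all promoters. For these 3 sets of letters the down-ranked share was below the up-ranked share, and the down-ranked interval held the share of all promoters. The down-ranked and up-ranked intervals overlapped, but for TGACCA only between 15.02 and 15.3%. The down-ranked interval held the share of other shared windows for RUNX and TGACCA. For AP-1 it lay above that share of 4.30%, in windows not matched for list position. A further 9 sets of letters had down-ranked shares whose intervals held the share of the other shared windows, namely a second ETS form (GAGGAAG), TCF/LEF (TTCAAAG), NF-kB, STAT (TTCNNNGAA), the T-box letters TCACACC, zinc-finger GATA factor letters written as AGATAA, the E-boxes CAGCTG and also CAGGTG, and the cyclic AMP response element TGACGTCA, with down-ranked shares between 3.23 and 29.0%. Letters were counted over whole windows, so a match could lie outside the peak. The same bases could count for more than 1 set of letters, and a match is not evidence of binding. Because down-ranked peaks at promoters are a minority, these windows describe few of the 1723 pairs.

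The down-ranked pairs as a whole lay in the upper and middle WT list and the middle and lower KO list, since the selection allows no WT position above 75. Their median position was 80.8 in the KO list (33.0 to 100) and 46.1 in the WT list (7.33 to 74.6), and the median difference was 31.3 points. Differences of 25 to 30 points were found in 731 down-ranked and 369 up-ranked pairs, and those of 30 to 40 points in 715 down-ranked and 354 up-ranked ones. From 40 to 50 points there were 215 down-ranked and 161 up-ranked pairs, and at 50 points or more 62 down-ranked and 106 up-ranked pairs. The surplus of down-ranked pairs was therefore in the smaller differences, and the largest differences were more often upward. Just inside the limit stood pairs at Kcnip1, Art2b and Slmap, with differences between 25.004 and 25.03 points, and just outside it a pair at Jchain and 2 pairs with no gene in reach, with 24.99 points in each.

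**Figure D1:**
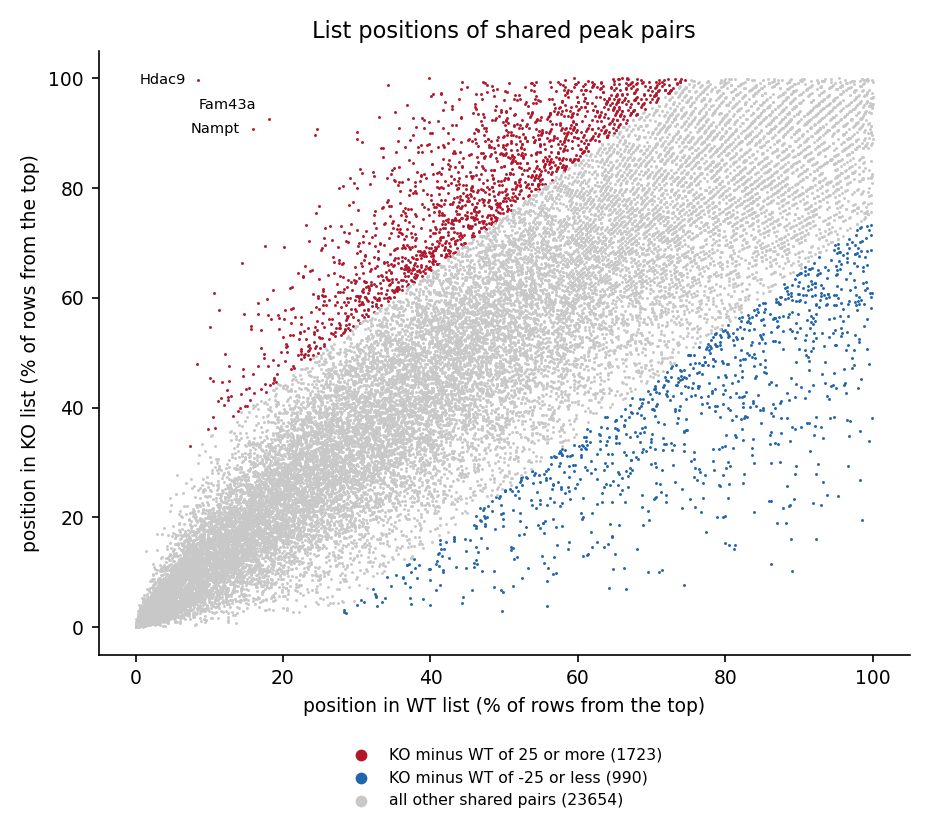
Position of each shared pair in the KO list (vertical axis) and the WT list (horizontal axis), both in percent of rows from the top. Red points are the 1723 down-ranked pairs, blue points the 990 up-ranked pairs and grey points all others, and the gene names mark the 3 pairs with the largest KO minus WT difference. The stripes among the lower pairs reflect blocks of rows sorted by chromosome and start.

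The peaks of a down-ranked pair lay close together. Their midpoints were a median of 36 bp apart, against 40 bp for up-ranked pairs, 28 bp for pairs within 5 points of each other and 31 bp for all other shared pairs. Most down-ranked pairs were thus nearly the same site in both lists. With midpoints required to be within 50 bp, 1071 down-ranked and 579 up-ranked pairs remained.

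Single sites reached far larger differences, and the first belonged to Hdac9, which encodes a class IIa histone deacetylase expressed in Treg cells. Its peak at chr12:34802561-34802779 in the WT list, inside the gene and 114 kb from the nearer end, stood at position 99.7 in the KO list and 8.49 in the WT list, a difference of 91.2 points. The other shared Hdac9 pairs stood at 99.3 in the KO list against 76.5 in the WT list, and at 92.3 against 88.7. All 3 Hdac9 sites were thus near the bottom of the KO list, and 1 of them was near the top of the WT list. Among the 26367 shared pairs this was the largest difference downward, and the next was 74.9 points.

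Further sites with large differences lay mostly away from genes. A peak 45.6 kb from Nampt, which encodes the rate-limiting enzyme of the NAD salvage pathway, at chr12:32774662-32774880, had position 90.7 in KO and 15.9 in WT. The peak at chr16:30678903-30679121, 76.2 kb from Fam43a, had position 92.5 in KO and 18.1 in WT. Another, at chr12:107404845-107405063, had position 90.8 in KO and 24.7 in WT and had no protein-coding gene within 100 kb. This last site lay in the 798 kb between Gm52008 and Bcl11b, a region without other protein-coding genes, at 505 kb from Bcl11b. Of the 20 shared pairs in that interval it was the only down-ranked one, 3 were up-ranked, and the median KO minus WT difference was -3.89 points. Bcl11b itself had 6 shared pairs and 0 down-ranked ones.

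The remaining sites among the 10 largest differences were at Pstpip2, Ska1, Commd1, Mrpl1, Pdcd1 and Myo6. The Pstpip2 peak, inside the gene of an F-BAR adaptor known for restraining autoinflammation, had position 89.6 in KO and 24.4 in WT. Ska1, a kinetochore gene, lay 4.89 kb from a peak at 98.7 in KO and 34.3 in WT. The Myo6 peak, in the gene of an actin-based motor, stood at 88.9 in KO and 29.98 in WT. In 3 of these 10 pairs the peaks only grazed each other, with midpoints 165 bp apart at Commd1, 184 bp at Mrpl1 and 180 bp at Pdcd1. Such a pair may hold neighbouring sites. With midpoints required to be within 50 bp, these 3 pairs and those near Nampt and Fam43a did not remain.

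Among down-ranked pairs at position 25 or less in the WT list, the 10 largest differences included 5 more genes. Camk2d, a calcium and calmodulin dependent kinase gene, held a peak at 66.4 in KO and 14.4 in WT. Ppm1b, a phosphatase gene, lay 63.2 kb from a peak at 60.9 in KO and 10.6 in WT. The peak at the Palld window shown above stood at 75.4 in KO and 24.5 in WT. Peaks nearest to Gm5148 and Nek10 stood at 69.5 and 76.7 in KO, against 17.6 and 24.9 in WT. No down-ranked pair stood above position 7.33 in the WT list, and the highest one there lay near Dusp1, an early-response phosphatase, at 33.0 in KO.

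Down-ranked pairs were rarely at gene ends. A protein-coding gene end lay within 1 kb of 176 of them (10.2%, 8.82 to 11.7%), while 772 (44.8%) were inside gene bodies and 775 (45.0%) between genes. Among all other shared pairs 36.3% were at gene ends, 34.4% in gene bodies and 29.3% between genes. Up-ranked pairs had nearly the same distribution as down-ranked ones, with 10.8% (8.94 to 12.9%) at gene ends, 48.7% in gene bodies and 40.5% between genes. The median distance to the nearest gene end was 19.8 kb for down-ranked pairs, 15.6 kb for up-ranked pairs, 5.50 kb for all other shared pairs and 0.910 kb for pairs within 5 points. A low share at gene ends was thus a property of pairs that moved in either direction, not of down-ranked pairs in particular. Genes holding a down-ranked pair were long, with a median of 94.7 kb, against 79.1 kb for up-ranked pairs, 47.8 kb for other shared pairs and 35.3 kb for pairs within 5 points. Of the 775 down-ranked pairs between protein-coding genes, 159 (20.5%) were in a long noncoding RNA gene, close to the 19.7% of up-ranked and 21.5% of other shared pairs.

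Gene ends are concentrated at the top of both lists, so shares were also compared within bands of the mean of both positions. In the band from 40 to 50, 11.7% of down-ranked pairs were at gene ends, against 14.6% of up-ranked pairs and 30.5% of pairs within 5 points. From 60 to 70 the shares were 10.6% for down-ranked pairs, 11.9% for up-ranked pairs and 15.5% for pairs within 5 points, and from 80 to 90 they were 5.10% for down-ranked pairs, 7.14% for up-ranked pairs and 10.3% for pairs within 5 points. Down-ranked pairs stood further below stable pairs in the band from 40 to 50 than in the other bands given. From 60 to 70 and from 80 to 90 the intervals of down-ranked and stable pairs overlapped, and from 40 to 50 they did not. Much of the contrast with other shared pairs may therefore reflect list position. The intervals of down-ranked and up-ranked pairs overlapped in each of these 3 bands.

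**Figure D2:**
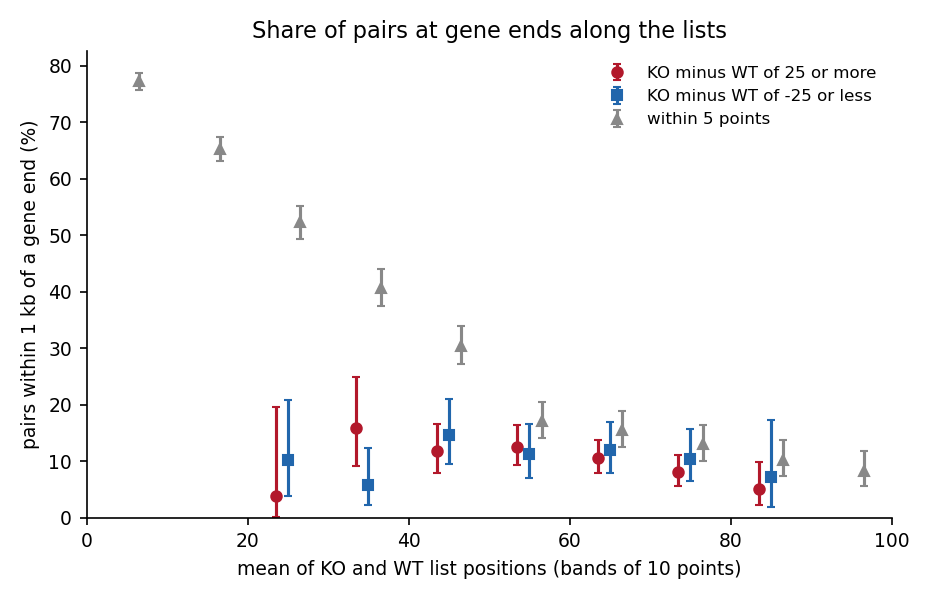
Share of pairs within 1 kb of a protein-coding gene end (vertical axis, %), by bands of 10 points in the mean of the KO and WT list positions (horizontal axis), for bands with at least 20 pairs. Points are down-ranked pairs (red), up-ranked pairs (blue) and pairs within 5 points (grey), and bars are exact 95% intervals. Stable pairs at the top of the lists are mostly at gene ends, and moved pairs of either direction stay low.

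The down-ranked pairs at gene ends with the largest differences included those at Pcm1, Plat, Hopx and Agbl4. Pcm1, a centriolar satellite gene, had its peak at 95.1 in KO and 36.8 in WT, 284 bp beyond the gene. Plat encodes tissue plasminogen activator, and its peak stood at 88.8 in KO and 37.2 in WT. Hopx encodes an atypical homeodomain protein known in Treg cells induced in the periphery, and its promoter peak at chr5:77114896-77115114 stood at 73.2 in KO and 23.2 in WT. Agbl4, a gene of a carboxypeptidase that acts on tubulin, had 90.0 in KO and 40.2 in WT.

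Where down-ranked pairs differed from up-ranked ones was in gene density. The stretch of 1 Mb around a down-ranked peak held a median of 8 protein-coding genes (quartiles 5 and 14), against 12 for up-ranked pairs (7 and 21) and 12 for all other shared pairs (7 and 22). In stretches with 0 to 2 genes, 143 of 1203 shared pairs (11.9%, 10.1 to 13.9%) were down-ranked and 42 (3.49%) were up-ranked. The down-ranked share was smaller in each denser class, and in stretches with 26 to 74 genes it was 134 of 4740 (2.83%, 2.37 to 3.34%), where 185 pairs (3.90%) were up-ranked. Up-ranked shares were between 3.44 and 4.09% in these 6 classes. In the densest class the up-ranked pairs outnumbered the down-ranked ones.

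Away from gene ends the gradients ran in opposite directions, with 13.2% (11.2 to 15.4%) of pairs down-ranked at 0 to 2 genes and 4.23% (3.42 to 5.16%) at 26 to 74 genes, and 3.93% (2.84 to 5.27%) up-ranked at 0 to 2 genes and 6.46% (5.45 to 7.58%) at 26 to 74 genes. The down-ranked gradient was also present among pairs of similar starting position. For pairs at 30 to 60 in the WT list and away from gene ends, 21.0% (17.4 to 24.9%) were down-ranked at 0 to 2 genes and 8.36% (6.49 to 10.5%) at 26 to 74 genes. The up-ranked share was 1.91% at 0 to 2 genes and 2.35% at 26 to 74 genes. Up-ranked pairs had a median WT position of 77.8, so this band holds few of them. It cannot show whether they have a gradient. With ranks among shared peaks alone, 7.32% of pairs at 0 to 2 genes and 1.31% at 26 to 74 genes were down-ranked, and 4.57 and 5.08% were up-ranked. The direction of the gradient was the same without chromosome 12, with 11.8% down-ranked in the sparsest and 2.80% in the densest class. These pairs come from 1 list per genotype, and neighbouring pairs share their surroundings, so the intervals do not cover the spread between mice or between regions.

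**Figure D3:**
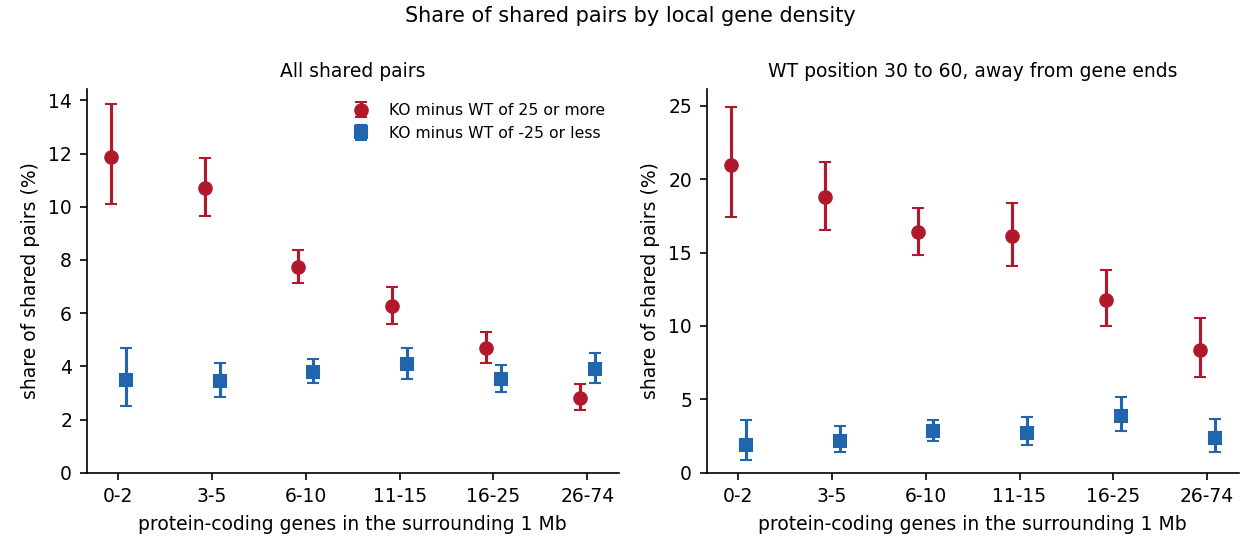
Share of shared pairs (vertical axes, %) that were down-ranked (red) or up-ranked (blue), by the number of protein-coding genes in the surrounding 1 Mb (horizontal axes). The left panel has all shared pairs and the right panel those at 30 to 60 in the WT list and away from gene ends, with exact 95% intervals. The down-ranked share is 11.9% at the sparse end and 2.83% at the dense end of the left panel, and the up-ranked share lies between 3.44 and 4.09% in that panel. The right panel holds few up-ranked pairs, whose median WT position was 77.8.

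Chromosomes differed as well. The highest down-ranked share was on chromosome 12, which carries Bcl11b, with 118 of 1179 shared pairs (10.01%, 8.35 to 11.9%) and an up-ranked share of 4.16%. Chromosomes 14 (9.26%), 10 (9.14%), 16 (8.35%) and 3 (8.01%) followed. The lowest share was on chromosome 11, with 66 of 1700 pairs (3.88%), followed by chromosome 9 (3.99%), chromosome 19 (4.01%) and chromosome 7 (4.57%). On chromosomes 11, 9 and 19 the up-ranked share was the larger one, at 4.82, 4.13 and 4.81%. Neighbouring chromosomes in this order overlapped in their intervals. The median number of genes in 1 Mb was 9 on chromosomes 12, 10 and 3 and 10 on chromosomes 14 and 16. It was 19 on chromosome 11, 14 on chromosome 9, 15 on chromosome 19 and 20 on chromosome 7. Chromosomes 13 and 18, with a median of 8, had down-ranked shares of 7.54 and 7.92%. Chromosomes 1 and 15, with 10, had 6.39 and 6.62%. Chromosome and gene density were not separated.

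**Figure D4:**
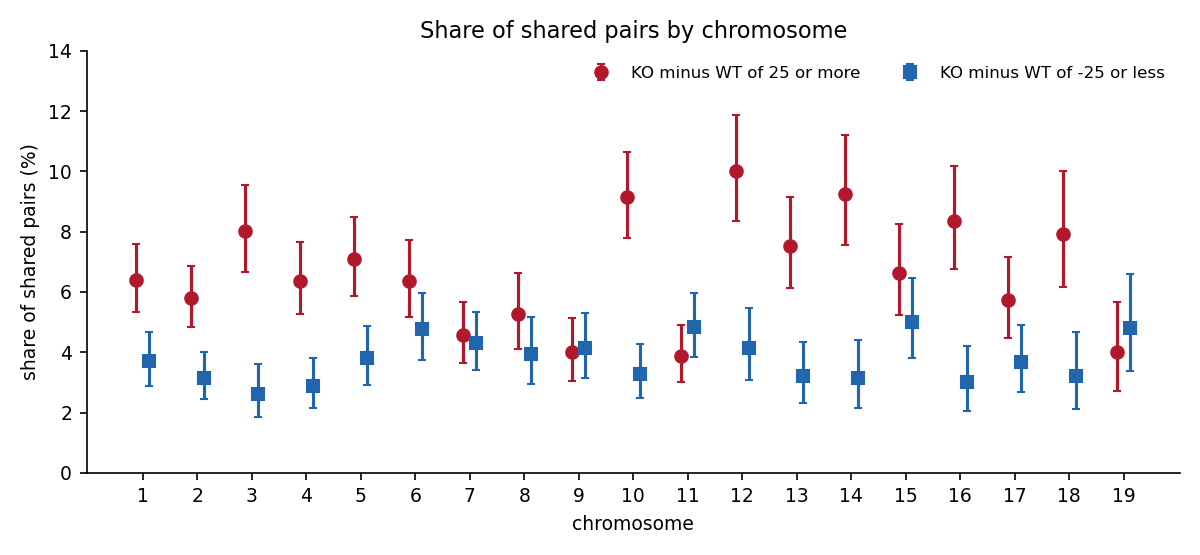
Share of shared pairs on each chromosome (vertical axis, %) that were down-ranked (red) or up-ranked (blue), with exact 95% intervals. The down-ranked share runs from 3.88% on chromosome 11 to 10.01% on chromosome 12.

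Within chromosomes, down-ranked pairs clustered in some segments. In 206 segments of 10 Mb with at least 50 shared pairs, the median down-ranked share was 5.85%. The highest share was 18 of 66 pairs (27.3%) at 70 to 80 Mb of chromosome 16, followed by 18 of 77 (23.4%) at 10 to 20 Mb of chromosome 14. On chromosome 12, 20 of 86 pairs (23.3%, 14.8 to 33.6%) at 30 to 40 Mb were down-ranked and 0 were up-ranked, and this segment holds the Hdac9, Nampt and Cdhr3 sites. The segment from 100 to 110 Mb, which holds Bcl11b, had 8 of 146 (5.48%) down-ranked and 11 up-ranked. Elsewhere on chromosome 12 the down-ranked share was 13.9% at 70 to 80 Mb and 12.7% at 90 to 100 Mb. It was 2.67% at 0 to 10 Mb and 4.35% at 110 to 120 Mb. The segment at 40 to 50 Mb, with too few pairs for the comparison above, had 9 of 30 (30%). A relation to the targeted gene was not tested.

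Clustering was also seen at short range. Of 776 shared pairs with a down-ranked pair within 10 kb, 109 (14.05%, 11.7 to 16.7%) were themselves down-ranked and 9 (1.16%) were up-ranked. Pairs near an up-ranked pair showed the reverse, with 9 of 494 (1.82%) down-ranked and 72 (14.6%) up-ranked. Among all 11530 pairs with a shared neighbour that close, 5.51% were down-ranked and 3.42% up-ranked. A peak found in the KO list alone lay within 10 kb of 14.7% of down-ranked, 28.0% of up-ranked and 19.2% of all other shared pairs, and one found in the WT list alone lay as close to 22.3% of down-ranked, 21.1% of up-ranked and 19.7% of all other shared pairs. The peaks of 1 list alone come from the same pair of lists and are given as a description.

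By the gene holding the WT midpoint, or the nearest protein-coding gene within 100 kb, 1586 down-ranked pairs were assigned to 1324 genes, and 137 had no gene in reach. A single down-ranked pair was assigned to 1122 of these genes, 2 to 161 genes and 3 or more to 41 genes. By comparison, 10 genes had 3 or more up-ranked pairs. Up-ranked pairs were also fewer in all, 990 against 1723, and these counts of genes were not adjusted for this. Of the 41 genes, 33 had 0 up-ranked pairs. Only 3.75% of all shared pairs were up-ranked, and how many genes with as many shared pairs had 0 was not counted. The 33 genes therefore cannot be read as more or fewer than the base share. Distance alone leaves unknown which gene a given site regulates.

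Foxp1, whose product maintains resting T cells and is also used by Treg cells, had the most, with 6 down-ranked among 23 shared pairs and 1 up-ranked. In the order of their coordinates these 6 had KO positions of 99.1, 79.5, 44.2, 69.7, 78.4 and 97.9, against WT positions of 73.5, 37.9, 17.6, 25.7, 43.6 and 72.6. Of these, 5 were inside the gene at chr6:98925342-99522746, and 1 lay 82.2 kb outside it. All 6 were at least 69.9 kb from a gene end, while the shared gene-end pair, at 71.5 in KO and 59.8 in WT, was not down-ranked. Over the 23 pairs the median difference was 11.8 points, against 2.52 over all shared pairs. Foxp1 also had 8 peaks in the KO list alone and 17 in the WT list alone.

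The genes with 5 down-ranked pairs were Immp2l, Map3k5 and Cblb. Immp2l, a subunit gene of a mitochondrial inner membrane peptidase, had 5 of 8, at 92.3, 85.05, 57.8, 49.8 and 61.5 in KO and 46.9, 42.5, 20.3, 17.5 and 35.2 in WT. The second of these Immp2l pairs shared only 13 bp. Map3k5, which encodes the stress kinase ASK1, had 5 of 8 with a median difference of 29.7 points over its pairs. Cblb encodes a ubiquitin ligase that restrains T cell receptor signalling, and 5 of its 14 pairs were down-ranked. The Cblb peak with the largest difference stood at 99.8 in KO and 64.7 in WT, and another in the gene at 40.3 in KO and 14.8 in WT. The peaks of this second Cblb pair shared only 8 bp and may be neighbouring sites. At the same gene the gene-end pair stood at 0.329 in KO and 0.0601 in WT, near the top of both lists.

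The 10 genes with 4 down-ranked pairs included signalling, chromatin and cytoskeletal genes. They were Palld (4 of 5 shared pairs), Ston2 (4 of 6), Cdhr3 (4 of 7), Atxn7 (4 of 8), Samsn1 (4 of 8), Inpp4b (4 of 11), Tbl1xr1 (4 of 13), Prkcq (4 of 16), Tox (4 of 16) and Akap13 (4 of 29). Atxn7 encodes a subunit of the SAGA histone acetyltransferase complex, and its peak with the largest difference stood at 57.9 in KO and 11.3 in WT, with midpoints 170 bp apart, so that it may hold neighbouring sites. Tbl1xr1 encodes a subunit of the NCoR corepressor complex, and its largest difference was at 93.0 in KO and 49.3 in WT. Inpp4b, a phosphoinositide phosphatase gene, had its largest at 72.4 in KO and 30.1 in WT. Ston2, an endocytic adaptor gene, had pairs at 78.7, 47.6, 58.4 and 86.4 in KO and 37.1, 12.7, 24.5 and 54.3 in WT, the last with midpoints 165 bp apart. Samsn1 encodes a lymphocyte adaptor that dampens antigen receptor signalling, with differences up to 42.6 points.

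The other 27 genes had 3 down-ranked pairs each. All shared pairs were down-ranked at Akr1d1 (3 of 3) and Gm38418 (3 of 3), and 3 of 5 were at Cast, Cdc14a, Dapl1 and Pdcd1. Igf2r and Mrps28 had 3 of 6, Tlk1 and Tmem64 3 of 7, and Arhgap18, St8sia4, Tbc1d1 and Tbc1d4 3 of 8. Msi2 and Sp3 had 3 of 9, Hmcn1 had 3 of 10, and Arf6, Eea1, Rbms1 and Thada had 3 of 11. Camk2d, Ext1 and Zfp281 had 3 of 12, Lclat1 3 of 15, Arid5b 3 of 16 and Bach2 3 of 22. Of these 27 genes, Tbc1d1, Msi2, Arf6, Thada and Bach2 also had an up-ranked pair. Over Tbc1d1's pairs the median difference was -0.76 points, so the gene as a whole did not stand lower in KO.

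Lists of genes that mark T cell states were then counted, with all their shared pairs as the base and 6.53% down-ranked and 3.75% up-ranked over all shared pairs. Over 13 lists of 275 genes, 86 of 1071 pairs were down-ranked (8.03%, 6.47 to 9.82%) and 49 (4.58%) up-ranked. The median KO minus WT difference was 2.29 points over these pairs and 2.52 over all shared pairs.

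Co-inhibitory receptor genes, which restrain T cell responses, had the highest share, with 7 of 31 pairs down-ranked (22.6%, 9.59 to 41.1%) and 4 up-ranked (12.9%). The list is small, and both shares were above the background. Pdcd1, which encodes the receptor PD-1, had 3 of 5 pairs down-ranked. Its distal peak at chr1:94074816-94075034 stood at 59.1 in KO and 16.6 in WT, and its promoter peak, whose window is printed above, at 55.2 in KO and 22.4 in WT. The pair with the largest difference, at chr1:94091780-94091998, stood at 92.9 in KO and 33.1 in WT and is the one whose midpoints were 180 bp apart. A peak 2.99 kb from the other end of the gene stood high in both lists, at 0.260 in KO and 3.79 in WT. The largest at Btla, another inhibitory receptor gene, stood at 88.0 in KO and 52.4 in WT. The list's other down-ranked pairs were at Cd200 (2 pairs) and Havcr2.

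Genes of naive and resting T cells had 16 of 134 pairs down-ranked (11.9%, 6.98 to 18.7%) and 4 up-ranked (2.99%), with a median difference of 3.60 points. Lef1, a TCF-family factor of resting T cells, had a peak at 96.3 in KO and 51.3 in WT. Foxp1 contributed 6 of the 16, with its largest differences at 69.7 in KO against 25.7 in WT and at 79.5 in KO against 37.9 in WT. Bach2, a repressor that holds back effector differentiation, contributed 3, the largest at 91.5 in KO and 50.1 in WT. The other down-ranked pairs of the list were at Klf2, Foxo1, Tcf7, Satb1 (2 pairs) and a second site of Lef1, so 7 genes of 18 with a shared pair had one.

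Treg signature genes had 11 of 117 pairs down-ranked (9.40%, 4.79 to 16.2%) and 5 up-ranked (4.27%), in 10 genes, with a median difference of 3.92 points. Ikzf3, which encodes the zinc-finger factor Aiolos, had a peak at 95.4 in KO and 52.8 in WT. Ikzf2 encodes Helios, and 1 of its 10 pairs, inside the gene at chr1:69555712-69555930, stood at 70.3 in KO and 28.5 in WT. Ctla4, an inhibitory receptor gene of Treg cells, had 2 of 11 pairs down-ranked, 40.5 and 48.3 kb away from the gene, at 92.8 and 75.9 in KO and 50.4 and 46.6 in WT. The Ctla4 gene-end pair stood at 7.22 in KO and 3.56 in WT, so the sites that moved were distal. Il2ra had 0 down-ranked of 4 pairs and Il10 0 of 5, of which 2 were up-ranked. Foxp3 is on chromosome X and was outside the selection.

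**Figure D5:**
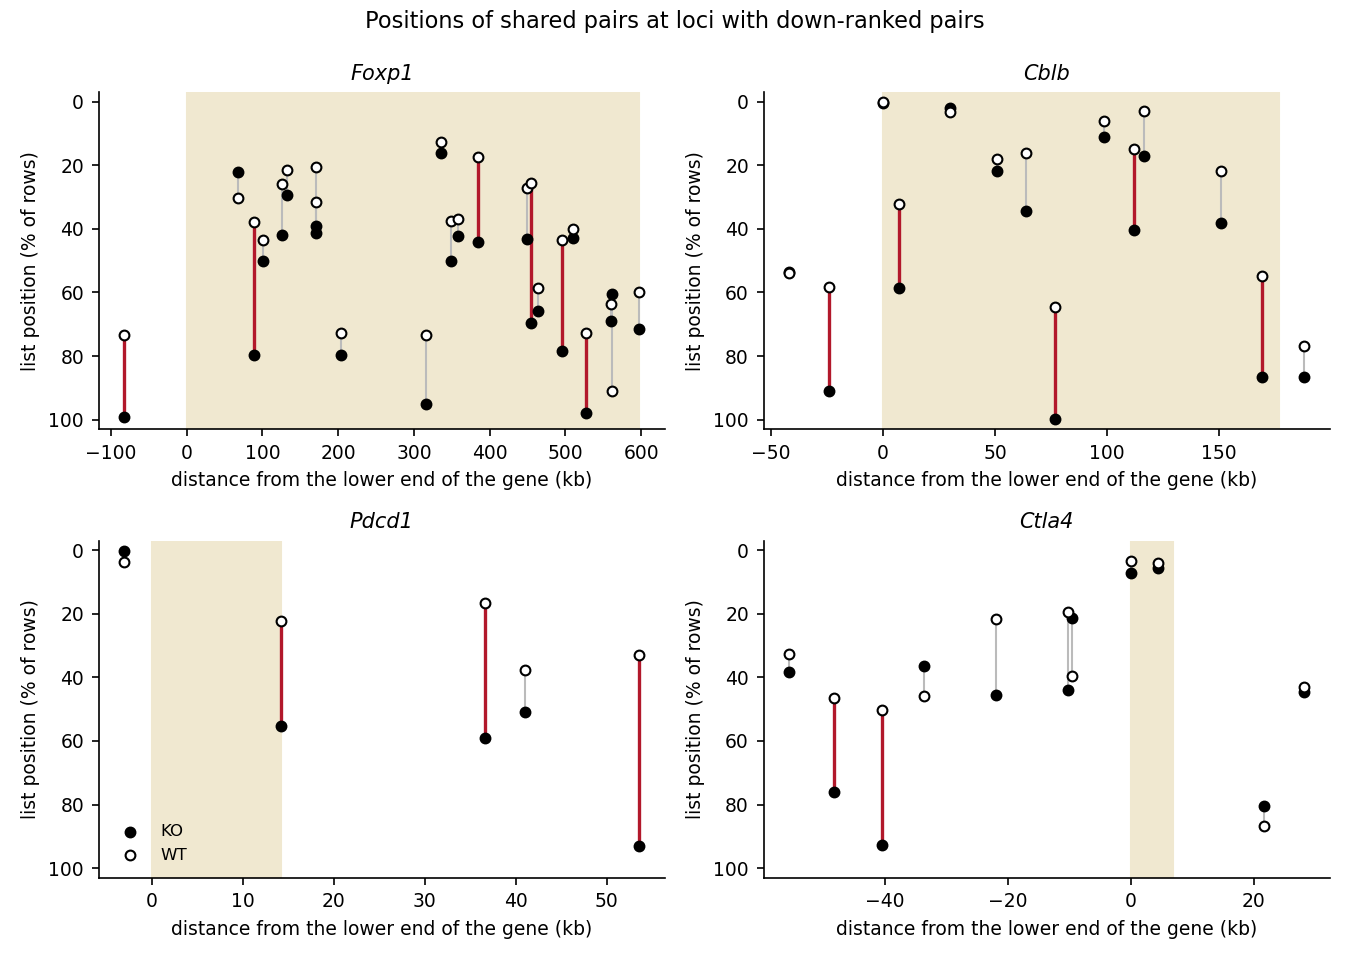
KO (filled circles) and WT (open circles) list positions of all shared pairs assigned to Foxp1, Cblb, Pdcd1 and Ctla4 (vertical axis, % of rows, top of the list uppermost), by distance from the lower end of the gene (horizontal axis, kb). Shading is the gene, red lines join down-ranked pairs and grey lines all others. At Cblb and Ctla4 the gene-end pairs stay near the top of both lists while more distant pairs are down-ranked.

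Genes of T cell receptor and costimulatory signalling had 18 of 174 pairs down-ranked (10.3%, 6.25 to 15.9%) and 7 up-ranked (4.02%), with a median difference of 1.59 points. Prkcq, which encodes the kinase PKC-theta, had 4 of 16, and its largest difference was at 89.7 in KO and 50.4 in WT. Cd2, an adhesion and costimulatory receptor gene, had a peak at 81.7 in KO and 43.2 in WT, although its midpoints were 183 bp apart and the peaks shared only 23 bp. Cblb supplied 5 of the 18, and Ptpn22, Nfatc3, Fyn, Dgkz, Malt1, Cd28 and Rasgrp1 were among the genes with 1 each. The Malt1 peaks shared only 1 bp, with midpoints 205 bp apart, and may be neighbouring sites. Down-ranked pairs of this list were therefore spread over both activating and restraining genes.

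Transcription factor genes of T cell identity had 10 of 125 pairs down-ranked (8%, 3.90 to 14.2%) and 6 up-ranked. Tox, an HMG-box factor gene, had 4 of 16 pairs, with the largest at 96.3 in KO and 56.1 in WT. Elf1, an ETS factor gene, had a peak at 72.8 in KO and 32.6 in WT, and Gfi1, a repressor gene, one at 76.2 in KO and 37.0 in WT. Chromatin regulator genes had 6 of 73 (8.22%, 3.08 to 17.0%) down-ranked and 1 up-ranked. Beside Hdac9, these were at Tet2, whose product oxidises methylcytosine, at 90.0 in KO and 39.9 in WT, at Arid1b, a BAF complex gene with 2 pairs, the larger difference at 84.0 in KO and 42.6 in WT, and at Hdac4 and Eed.

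Of the remaining lists, cytokine receptor and STAT genes had 7 of 122 pairs down-ranked (5.74%) and 4 up-ranked, with peaks at Ifngr1 (67.5 in KO, 26.9 in WT), Stat4 (68.6 in KO, 30.5 in WT) and Il6st (92.4 in KO, 54.4 in WT). Early-response genes of the AP-1 and NF-kB pathways had 5 of 99 (5.05%) down-ranked and 4 up-ranked, with the largest differences at Jun (34.0 points), Nfkbiz (30.6 points) and Dusp5 (28.2 points). Effector Treg and homing genes had 3 of 81 (3.704%) down-ranked, at Itga4, Rora and Areg, and 5 up-ranked. Genes of cytotoxic, NK and Th1 cells had 1 of 47 (2.13%), at Fasl, and 5 up-ranked. Myeloid genes had 0 of 26, with an interval reaching 13.2%, and 2 up-ranked. B cell genes had 1 of 12, at Pou2af1 with 93.6 in KO and 46.4 in WT, and housekeeping genes 1 of 30, at Ywhaz. The background of 6.53% lay within the interval of each of the 13 lists except those of co-inhibitory receptors and of naive and resting T cells. These intervals count the pairs of 1 gene as independent. Pdcd1 gave 3 of the 7 down-ranked co-inhibitory pairs, and Foxp1 gave 6 of the 16 naive and resting ones. The exception of these lists may therefore rest on single genes. The background was not matched to the lists for position, gene ends or gene density. The lists were chosen with earlier results of these data known, and with ranks among shared peaks alone 51 of the 1071 pairs of all lists (4.76%) were down-ranked, against 3.57% of all shared pairs under the same ranking.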

How the data were processed

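ATAC-seq was done on 3 KO and 3 WT samples of sorted mouse Treg cells. Per the submitters' processing notes, the build was mm10 and the tools were HISAT2 2.1.0, HOMER 4.10.1, SAMtools 1.3, deepTools, FastQC, cutadapt 1.12 and Trim Galore 0.4.2, in an order and with roles that are not stated. The peak threshold, the transposase shift and the joining of samples were not given in the sources used here. According to the labels, the authors deposited 1 peak list per genotype. The score the authors deposited is 1 in every row and was not used. Most peaks are 193 bp wide in the KO list (36176 of 36182) and 219 bp in the WT list (38249 of 38258).

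All further steps used Python 3.11.15 with pandas 2.3.3, numpy 2.4.6, matplotlib 3.10.9 for plots and scipy 1.17.1 for intervals. Peaks overlapping by at least 1 bp were paired, taking the largest overlap. The pairing code was tested on simulated data. Genes and promoter windows came from RefSeq tables of GRCm38.p6, whose coordinates equal those of mm10. Gene-end pairs lie up to 1 kb from the start or the end of a protein-coding gene, and gene density counts the genes within 500 kb either side of the WT midpoint.

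The down-ranked pairs and the gene lists were chosen with earlier results of these data known. Named are the 10 pairs with the largest difference, the 10 with the largest difference among those at 25 or less in WT, the 5 largest at gene ends, genes with 3 or more down-ranked pairs, up to 3 pairs per gene list, the 3 pairs on each side of the limit, and Bcl11b, Foxp3, Il2ra, Ctla4, Ikzf2 and Il10. Slamf7, Susd4, Dusp1, the marker genes, further sites at named genes and the other list genes named without positions were added after their values were seen. Some genes that these rules name are not reported here. Alternatives were other pairings, rankings, thresholds, gene-end windows and gene assignments.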

Additional observations from a re-analysis of the deposited data

Results flagged for a closer look

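The X chromosome, which the selection leaves out, had 586 shared pairs, of which 67 stood at least 25 points further down the KO list (11.4%, exact 95% interval 8.97 to 14.3%) and 6 stood as far up. It is listed here because it is a signal in data that the comparisons above did not use. On the autosomes 6.53% of pairs stood as far down, and the highest share of any of them was 10.01% on chromosome 12. The Y chromosome had 0 of 22. The sex of the mice is not given in the labels used here.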

How the results depend on the processing

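Ranking among shared peaks alone turned the surplus, with 942 pairs down (3.57% of shared pairs) and 1319 up. It also gave 4.76% for all lists together, 5.34% for chromosome 12, 6.89% for pairs with 0 to 5 genes in 1 Mb and 1.90% for pairs with 16 or more. Subtracting the median difference, chosen after seeing the data, left 1315 down (4.99%) and 1220 up, with 5.88%, 7.80%, 8.78% and 2.86% for the same 4 shares. The corresponding values of the main analysis, with 6.53% of shared pairs down, were 8.03%, 10.01%, 11.02% and 3.80%. Ranks from the number in the peak name gave 2337 down (8.86%) and 848 up, with 11.9% for chromosome 12, 14.1% at low and 5.13% at high gene density. Midpoints within 50 bp gave 1071 down (6% of 17849 pairs), 579 up and 8.13% for chromosome 12.

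A threshold of 20 points gave 2790 down (10.6%) and 1515 up, with a gene-end share of 12.4%, 11.8% for the lists, 13.8% for chromosome 12, 16.8% at low and 6.74% at high gene density. A threshold of 35 points gave 548 down (2.08%) and 416 up, with 8.39%, 2.71%, 2.97%, 3.95% and 0.920% for the same shares and 0 of 34 promoter windows with ETS letters. Gene ends within 500 bp gave 7.60% of down-ranked and 8.18% of up-ranked pairs, and within 2 kb 13.9% and 14.9%. Lists with genes within 10 kb gave 5.97%. In each setting with values for gene density, the sparse regions had the higher down-ranked share. The causes of these shifts were not tested. Other settings moved no summary value by more than its interval, or a count by over 1.5 times. Motif windows of another width were not run. No paired analysis was possible because each genotype has 1 list, and for the same reason no replicate could be left out.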

Other observations

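Sites that moved in opposite directions were found at the same genes. Of the 1324 genes with a down-ranked pair, 109 also had an up-ranked one, among them 24 with at least 2 down-ranked pairs. How many of all 11988 genes with a shared pair had an up-ranked one was not counted. The 109 genes therefore cannot be read as more or fewer than the base share. Akap13, which encodes an anchoring protein for protein kinase A, had the widest spread among the genes named above. Its neighbouring sites at chr7:75384810-75385028, chr7:75387967-75388185 and chr7:75399137-75399355 stood at 73.4, 49.2 and 93.4 in KO and at 29.2, 22.8 and 47.1 in WT, while the next site, chr7:75416187-75416405, stood at 14.2 in KO and 81.2 in WT. The Akap13 gene-end pair was near the top of both lists, at 0.243 in KO and 0.227 in WT. At Foxp1, the up-ranked site at chr6:99486216-99486434 stood at 60.6 in KO and 90.9 in WT, within the gene that held 5 of its 6 down-ranked sites.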
